A study of Mus musculus with 4 samples.

Results

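The genes described here are those whose symbols mark them as cytosolic ribosomal protein genes: 86 of the 31053 genes in the count matrices carry a symbol that starts with Rpl or Rps and a digit, or are Rplp0, Rplp1, Rplp2 or Rpsa. S6 kinase symbols and pseudogene-type symbols were left out. Of the 86, 52 carry large subunit symbols and 34 carry small subunit symbols. Dissociation-induced transcription in whole mouse brain was the question of the study, in which the brains of C57BL/6J males (postnatal day 90) were taken apart with enzymes, either without inhibitors (2 animals) or with inhibitors (2 animals). In the inhibitor arm, the transcription inhibitors actinomycin D and triptolide were present through perfusion, dissection and digestion, and the translation inhibitor anisomycin during dissection and digestion. No transgene or other genetic change is named for any animal, and all 4 libraries carry the same batch label. RNA was counted by droplet single-cell sequencing with the 10x Genomics 3′ chemistry, in which each unique molecular identifier (UMI) stands for one captured molecule, so a gene's count does not grow with its length.

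The matrices held 12487 barcodes, of which 9861 were kept, with 20757922 UMIs. Median UMIs per kept cell ran from 1441.5 to 1686 between libraries. Clustering without the 86 genes gave 30 clusters, which fell into 15 classes by their markers, and 9 classes had at least 20 cells in every animal and were tested. Each of the 15 classes passed on its markers and 0 clusters were left unnamed. A total of 43 barcode sequences of kept cells occurred in more than 1 library. Ttr, the transthyretin gene of choroid plexus epithelium, made up 0.0523% to 1.33% of UMIs in the other classes of single libraries. The highest values were 1.33% in mural-like and 1.12% in neural progenitor-like cells of the first animal without inhibitors, whose microglia-like cells had 0.27%. The range is a rough guide to choroid plexus RNA outside its class and does not measure free RNA alone.

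A ribosome is built from a small subunit, which reads the mRNA, and a large subunit, which joins amino acids, and each holds ribosomal RNA and many proteins that are needed in about equal numbers. Ribosomal protein mRNAs are abundant in nearly all cells, and most begin with a run of pyrimidines, the terminal oligopyrimidine (TOP) motif, through which growth signals acting on mTOR and LARP1 set their translation and stability. A few members have a paralog that takes the same place in the ribosome, among them Rps27 and Rps27l, Rpl22 and Rpl22l1, and Rpl36a and Rpl36al. Rps19bp1, a nucleolar binding partner of the S19 protein, and Rpl7l1, which acts in large subunit assembly, match the symbol rule but are not regarded as structural ribosomal proteins.

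All 86 genes were found in GENCODE as protein coding genes, spread over 19 chromosomes, with 4 on the X chromosome (Rpl10, Rpl36a, Rpl39 and Rps4x). Their proteins ran from 25 residues (Rpl41) to 419 residues (Rpl4), with a median of 151. Introns or exons of 30 members held 58 annotated small nucleolar RNAs, and 20 of those 30 hosts were large subunit genes. RefSeq start sites were at hand for 66 members, which had 78 promoters. A run of at least 7 C or T that came within 10 bases of the start was found in 44.9% of these promoters and in 20.2% of all 32851 promoters. Among the 300-base promoters, the ETS-type word CCGGAAG, on either strand, stood in 34.6% against 8.86% of all promoters, the YY1-type word AAGATGGC in 10.3% against 2.75%, the Sp-type word GGGCGG in 60.3% against 35.7%, and TATAAA in 8.97% against 13.6%. These matches describe letters in the window and not bound sites.

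The start regions of the members on which the results below turn are printed with 10 bases before and 20 bases after the annotated start (RefSeq, GRCm38.p6, gene strand). They comprise Rps6 and Rpl13a, the pairs of paralogs, and Rpl41 and Rpl38. Capitals mark the longest C or T run that came within 10 bases of the start, where it had at least 7 bases, and other runs are left in lower case.
Rps6, chr4:86857348-86857377, minus strand: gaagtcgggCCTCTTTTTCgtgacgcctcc
Rpl13a, chr7:45128726-45128755, minus strand: cctgcgacaagaCCTCCTCCTTTCCCaggc
Rps27, chr3:90213629-90213658, minus strand: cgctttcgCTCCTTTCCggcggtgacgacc
Rps27l, chr9:66946076-66946105, plus strand: CCTCCCCgccgcctctatcccggaagttgc
Rpl22, chr4:152324426-152324455, plus strand: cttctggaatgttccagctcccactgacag
Rpl22l1, chr3:28805498-28805527, plus strand: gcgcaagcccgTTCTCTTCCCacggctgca
Rpl36a, chrX:134585644-134585673, plus strand: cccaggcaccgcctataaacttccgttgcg
Rpl36al, chr12:69184048-69184077, minus strand: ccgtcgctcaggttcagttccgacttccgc
Rpl41, chr10:128549149-128549178, minus strand: gggccggctcggaagtgacgacaccgagca
Rpl38, chr11:114668570-114668599, plus strand: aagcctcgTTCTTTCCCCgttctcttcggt
Rps27 has the run across its start, whereas in Rps27l the run ends before the start. Of the pair Rpl22 and Rpl22l1, the second holds a run just after the start. Rpl36a, Rpl36al and Rpl41 have no run of that length in these 30 bases. Rpl22 and Rps27l each have 2 RefSeq starts, and the first is shown; that of Rpl22 lies upstream of its GENCODE gene start at position 152325742.

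In all kept cells, ribosomal protein genes took 8.429% of UMIs. The most abundant were Rpl41, the shortest protein of the set, Rps29 and Rps27, which together held 11.88% of the members' UMIs. Rpl41 stood at 3485 to 4209 CPM over the 4 animals (CPM, a gene's UMIs divided by all UMIs of the library and multiplied by 1000000), Rps29 at 3198 to 3687 and Rps27 at 2503 to 2913, so Rpl41 and Rps29 overlapped between animals and Rps27 lay below both. A total of 25 members held 50% of the members' UMIs, and the median member had 19540 UMIs. The 3 lowest members found in every class were Rps19bp1 at 53.0 ± 1.7 CPM (SD, n = 4), Rpl7l1 at 64.8 ± 5.0 and Rps27rt at 234 ± 18.3. Rps27rt is a single-exon retrogene copy of Rps27, so that the reads of these 2 genes cannot be told apart with certainty. Rpl3l and Rpl39l, known from muscle and testis, had 9 and 8 UMIs in all, and Rpl10l, a testis gene, had 0, which allows at most 3 UMIs for each library. These 3 were not tested, and 83 members were.

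**Figure D1:**
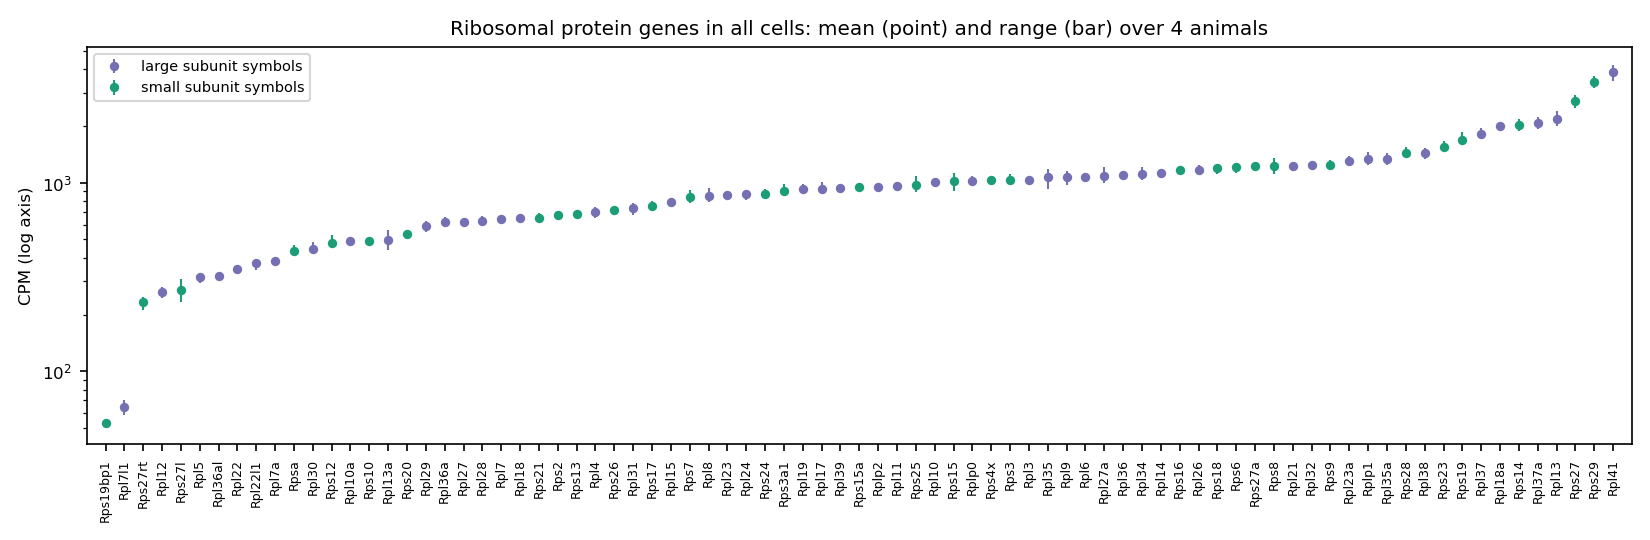
Ribosomal protein genes with at least 100 UMIs, without 2 that are not reported by name, ordered by their mean level over the 4 animals (log axis, CPM over all kept cells); bars give the range over animals and colours the subunit named by the symbol. Levels rise from 53.0 for Rps19bp1 to 3889 for Rpl41, and large and small subunit symbols are mixed along the range.

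The summed share of UMIs differed severalfold between cell classes. Among the tested classes other than choroid plexus-like, neuron-like and macrophage/monocyte-like cells, it was close between the animals of a class. Macrophage/monocyte-like cells had 21.6% and 22.2% without inhibitors and 22.3% and 17.6% with inhibitors, the highest of the tested classes. Microglia-like cells had 11.3% and 10.6%, then 10.8% and 11.5%, and endothelial-like cells 10.4% and 10.6%, then 10.5% and 10.9%. Microglia-like and endothelial-like cells therefore overlapped, below macrophage/monocyte-like cells in each animal. Mural-like cells followed with 8.57% ± 0.41 (SD, n = 4), with 9.12% in the cluster that also passed endothelial markers and 6.02% and 8.85% in the other 2. Next were choroid plexus-like cells with 8.10% ± 1.78 and ependymal-like cells with 7.62% ± 0.25. The choroid plexus-like range overlapped those of mural-like and ependymal-like cells, which did not overlap each other. Oligodendrocyte-like cells had 5.99% ± 0.16 and neuron-like cells 4.803% ± 1.03, whose ranges overlapped as well, and astrocyte-like cells had 3.28% ± 0.15, below every other tested class in each animal. Neuron-like cells split by animal rather than by arm, with 5.52% and 5.85% in one animal of each arm and 3.96% and 3.89% in the others.

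Of the classes too small to test, 20 other leukocyte-like cells had the highest share of all, 24.8% to 42.0% over the 4 animals, and 113 neural progenitor-like cells had 14.95% to 15.6%. Fibroblast-like cells had 12.03% to 13.3%. Oligodendrocyte precursor-like cells had 5.68% to 7.19%, erythrocyte-like cells 5.32% to 6.22%, and olfactory ensheathing-like cells, found in 2 animals, 5.71% and 4.90%. Within classes, clusters differed too. Among macrophage/monocyte-like cells, a cluster of 115 cells led by H2-Aa, Cd74 and Ccr2 had a share of 22.8%, and a cluster of 63 cells led by Pf4, Lyve1 and Mrc1 had 15.7%. Among microglia-like cells, a cluster of 106 cells with a median of 957 UMIs had a share of 20.4%, against 9.26% to 10.9% in the other 4 microglia-like clusters. This cluster passed 5 of 9 microglia markers and had 8.17% mitochondrial UMIs. A cluster of 165 astrocyte-like cells with a median of 816 UMIs had 6.64%, against 2.86% to 3.35% in the others. These 2 clusters were shallow, but depth and share had no single order over the classes. Deeper clusters had the higher share among macrophage/monocyte-like, mural-like (9.12% at 3998 UMIs, 6.02% at 984) and fibroblast-like cells (13.1% at 4423, 8.06% at 1718). They had the lower share among choroid plexus-like (5.66% at 2516, 10.1% at 1676.5) and oligodendrocyte-like cells (5.49% at 4580.5, 6.14% at 2667). The part of depth was not tested.

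Large subunit genes outnumbered small subunit genes in UMIs in every class. Their ratio was 1.35 over all cells, with a range of 1.34 to 1.36 between animals. It was lowest in macrophage/monocyte-like cells (1.18 ± 0.04) and other leukocyte-like cells (1.19 ± 0.02), and highest in choroid plexus-like cells (1.57 ± 0.03), whose lowest animal (1.53) stood above the highest animal of every other tested class. Microglia-like cells had 1.28 ± 0.01, below endothelial-like cells at 1.34 ± 0.005. Rpl41 alone gave 14888 UMIs in choroid plexus-like cells and counts toward the large subunit.

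**Figure D2:**
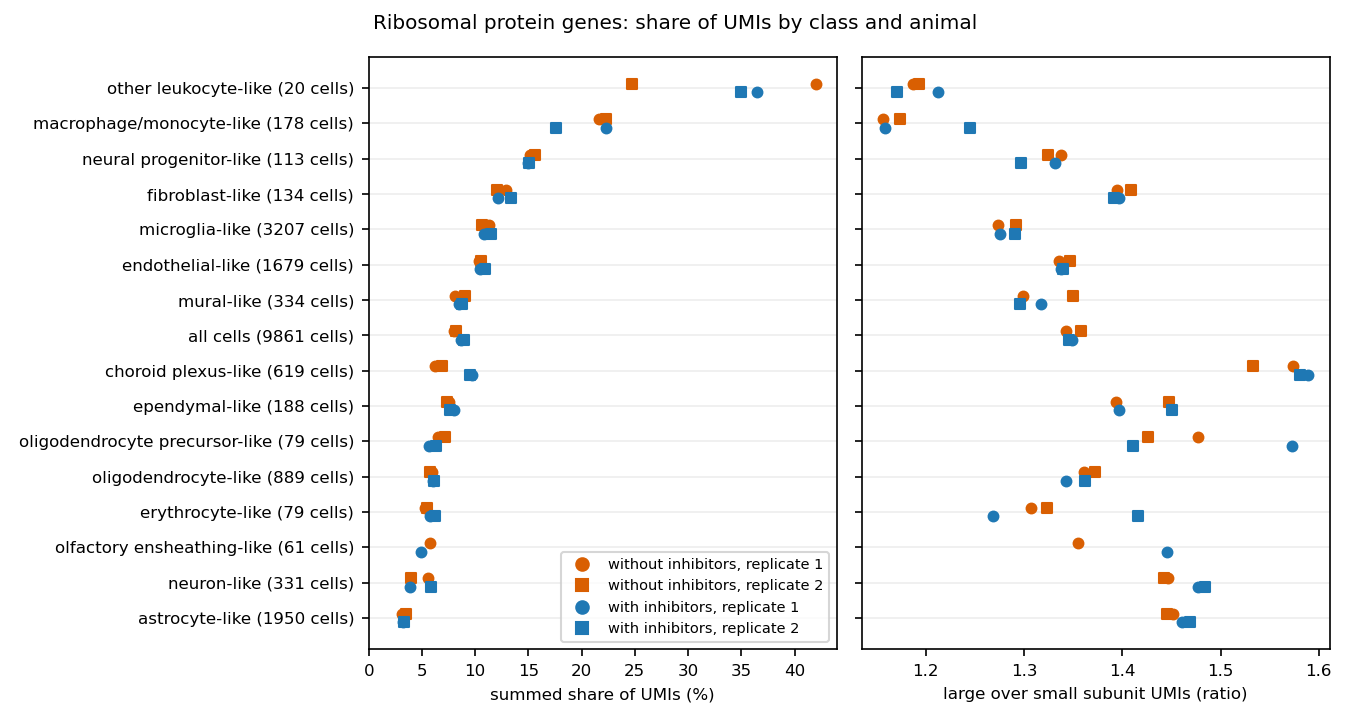
Left, percentage of all UMIs that came from ribosomal protein genes in each class and animal; right, ratio of large to small subunit UMIs. Each point is 1 animal, coloured by inhibitor arm; choroid plexus-like animals separate by arm (6.24% and 6.90% without, 9.69% and 9.55% with inhibitors), whereas astrocyte-like animals all lie between 3.13% and 3.495%.

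To ask which members differ between classes, UMIs were summed per animal and class and each class was set against the mean of the other 8 tested classes (edgeR quasi-likelihood test with TMM scaling and animal as a block, 11293 genes). All 83 tested members differed between classes (adjusted p under 0.05), as did 97.8% of all genes. A call needed an adjusted p under 0.05 together with a log2 fold change beyond 0.58 in either direction. Classes were rebuilt from the same cells, though without the members, so p-values describe how far the sums stand apart across these animals. Levels below are CPM within the class, and fold changes come from the fit.

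In macrophage/monocyte-like cells, 79 of 83 members were higher and 0 were lower, where 12.1% of all genes were higher and 13.1% lower, and the median log2 fold change was 1.47. Rps28, a small subunit protein, stood at 5256 and 5631 CPM without inhibitors and at 5808 and 3858 with inhibitors, 2.12 above the other classes on the log2 scale (SE 0.09, adjusted p = 1.96e-125, edgeR). Rps4x, the X-linked S4 gene, had 3243, 3489, 3771 and 2658 CPM in the same order of animals, also 2.12. For both, the lowest animal was the second animal with inhibitors, whose share of UMIs was lowest too. The 4 members not called in this class were Rps19bp1, Rpl7l1, Rps27l and Rpl22l1.

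Microglia-like cells had 59 of 83 members higher and 0 lower, beside 28.2% and 15.4% of all genes, and a median of 0.73. Rpl7l1 stood at 111, 121, 132 and 124 CPM, higher by 1.46 (SE 0.11, adjusted p = 3.82e-39, edgeR), and Rpl10 at 1791, 1723, 1728 and 1902, higher by 1.36. Rpl10 joins the large subunit late in its assembly. Rps4x had 1709 ± 69.5 (SD, n = 4), higher by 1.32. How many members passed depended on the setting: 36 did with library totals, 24 with median-ratio (RLE) factors and 25 without the first animal with inhibitors. All that passed were higher. The median of all genes was 0.03 with TMM, -0.14 with library totals and -0.24 with RLE factors. These counts stand without the share of all genes called in the same setting, and describe how calls moved.

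Endothelial-like cells had 25 members higher and 0 lower, beside 24.6% and 15% of all genes, and a median of 0.51. Rpl38, whose loss disturbs axial skeleton patterning in mice, had 2690, 2551, 2699 and 2702 CPM, higher by 1.01 (SE 0.09, adjusted p = 7.21e-31, edgeR). Rps19, the gene most often mutated in Diamond-Blackfan anaemia, had 2874, 2622, 2629 and 2901, higher by 0.96, and Rpl27a had 1586 ± 76.4, higher by 0.79. The share of 25 in 83 was close to that of all genes, the count fell to 2 with RLE factors, and it was 12 without the first animal with inhibitors. The median of all genes went from 0.04 to -0.18 with RLE factors, and their share called in these settings is not given.

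Choroid plexus-like cells had 44 members higher and 0 lower with TMM scaling, beside 26% and 23.6% of all genes, with a median of 0.59. With library totals this became 4 higher and 4 lower with a median of -0.04, beside 14.8% and 42.4% of all genes with a median of -0.85. With totals that left out Ttr it was 22 higher and 0 lower with a median of 0.38, beside 22.8% and 30.4% of all genes with a median of -0.40. The same 4 members were called higher under each of these scalings: Rps27l, Rpl41, Rpl36al and Rpl22l1. Rps27l, the p53-inducible paralog of Rps27, had 534 and 612 CPM without inhibitors and 614 and 600 with them, higher by 2.10 (SE 0.10, adjusted p = 1.92e-92, edgeR). Rpl41 had 5651, 5992, 10337 and 10492, higher by 1.87, and Rpl36al had 469, 507, 684 and 666, higher by 1.67. Rpl22l1 was higher by 1.41. With library totals the 4 values were 1.45, 1.25, 1.03 and 0.77.

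Astrocyte-like cells had 82 of 83 members lower and 0 higher, beside 15.4% and 28.8% of all genes, with a median of -1.36. Rps6, the S6 kinase target, had 337, 360, 353 and 311 CPM, at -1.85 on the log2 scale (SE 0.11, adjusted p = 1.12e-57, edgeR). Rps3a1 had 258 ± 22.1, at -1.82, and Rplp0, the base of the ribosomal stalk that recruits elongation factors, 261 ± 38.7, at -1.81. Only Rps19bp1 was not lower. The count was 81 or 82 under each other scaling to all genes, each filter and each left-out animal.

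Neuron-like cells had 81 members lower and 0 higher, beside 18.6% and 27.8% of all genes, with a median of -1.31. Rps27l had 44.6, 116, 51.2 and 58.6 CPM, a total of 38 UMIs, at -2.73 (SE 0.21, adjusted p = 3.70e-38, edgeR). Rplp0 had 272, 260, 333 and 234, at -2.37, and Rpl22, a large subunit protein that also acts in T cell development, had 203, 107, 85.3 and 141, at -1.91. With library totals 58 members were lower, and the median was -0.70 against 0.68 for all genes. The median of all genes was 0.06 with TMM scaling, and their share called lower with library totals is not given. Neuron-like cells were the shallowest tested class, with medians of 860 to 1022 UMIs per cell, and the part of depth was not tested.

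In the remaining classes few members were called. Oligodendrocyte-like cells had 3 higher and 7 lower, beside 24.7% and 18.7% of all genes. Rpsa, also known as the laminin receptor, had 557, 496, 604 and 636 CPM, higher by 0.74, while Rpl4 had 831 ± 10.1, higher by 0.73, and Rpl3, next to the peptidyl transferase centre, 1173 ± 60.9, higher by 0.64. None of the 3 was called with library totals or RLE factors, which left 0 higher and 28 or 21 lower, beside 26.0% or 23.7% of all genes lower. Rps27rt (110 ± 6.6 CPM, -0.87), Rpl10a (240 ± 17.2, -0.77) and Rps29 (1619 ± 56.7, -0.72) were lower. Ependymal-like cells had 16 lower and 0 higher, beside 16% and 26.6% of all genes, among them Rpl35 (621 ± 78.3, -0.85) and Rpl29 (372 ± 47.8, -0.82). Library totals made this 4 higher and 3 lower, beside 30.5% and 11.7% of all genes. Mural-like cells had 1 lower and 0 higher, beside 10.4% and 20.5% of all genes. The member was Rpl36al (207 ± 10.5, -0.87), and 17 were lower without a mural-like cluster of mixed markers. The 17 stand without the share of all genes called in that setting.

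The members' order of abundance was alike between classes and yet some members stood out. Over the 83 members, the correlation of log2 levels between 2 classes ran from 0.858 (choroid plexus-like and microglia-like) to 0.992 (endothelial-like and mural-like). Of the 334 mural-like cells, 157 lay in a cluster that also passed 9 endothelial markers. This is a description across genes of the same libraries and not a test over replicates. To see which members depart from the rest, the same fit was scaled to the members' summed UMIs, so that a value says how a gene stands within the set whatever the level of the whole set.

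On that scale Rps27l was higher in choroid plexus-like (1.48, SE 0.10), ependymal-like (0.82) and astrocyte-like cells (0.62), and lower in neuron-like (-1.36), macrophage/monocyte-like (-1.08) and microglia-like cells (-0.76). Rpl22l1 was called in 7 of the 9 classes, higher in neuron-like (1.19, SE 0.12), choroid plexus-like (0.78), ependymal-like (0.74) and astrocyte-like cells (0.64), and lower in microglia-like (-0.995), macrophage/monocyte-like (-0.95) and endothelial-like cells (-0.81). Rpl41 was higher in choroid plexus-like (1.23) and ependymal-like cells (0.69), and lower in microglia-like (-0.73) and macrophage/monocyte-like cells (-0.67). Macrophage/monocyte-like and microglia-like cells thus stood on one side for these 3 members, and choroid plexus-like and ependymal-like cells on the other.

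Other members departed in fewer classes. Choroid plexus-like cells had Rpl36al higher (1.05) and Rps4x (-0.79), Rps3a1 (-0.76), Rpsa (-0.76) and Rpl13 (-0.59) lower within the set. Oligodendrocyte-like cells had Rpsa (0.91), Rpl4 (0.90), Rpl3 (0.82), Rplp0 (0.61) and Rpl14 (0.60) higher. In macrophage/monocyte-like cells Rps4x (0.62), Rps28 (0.62) and Rpl32 (0.59) were higher, and in microglia-like cells Rpl38 was lower (-0.95) and Rpl7l1 (0.75), Rpl10 (0.64) and Rps4x (0.60) were higher. Rpl38 was higher in ependymal-like cells (0.66). Rps19bp1 was higher in astrocyte-like (1.48) and neuron-like cells (1.06) and lower in macrophage/monocyte-like (-1.54) and endothelial-like cells (-0.62). Its unscaled level was 50.3 ± 22.04 CPM in macrophage/monocyte-like and 51.5 ± 19.2 in astrocyte-like cells, whereas Rps14 had 5134 ± 700 and 781 ± 50.6. In this scaling 7 members were called in astrocyte-like cells beside 76.9% of all genes, 9 in choroid plexus-like beside 55.4%, 10 in macrophage/monocyte-like beside 74% and 7 in microglia-like beside 50.3%. Oligodendrocyte-like cells had 7 beside 45.5%, ependymal-like 5 beside 41.4%, neuron-like 4 beside 63.9%, endothelial-like 2 beside 43.4%, and mural-like 1, Rpl36al, beside 30.6%.

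**Figure D3:**
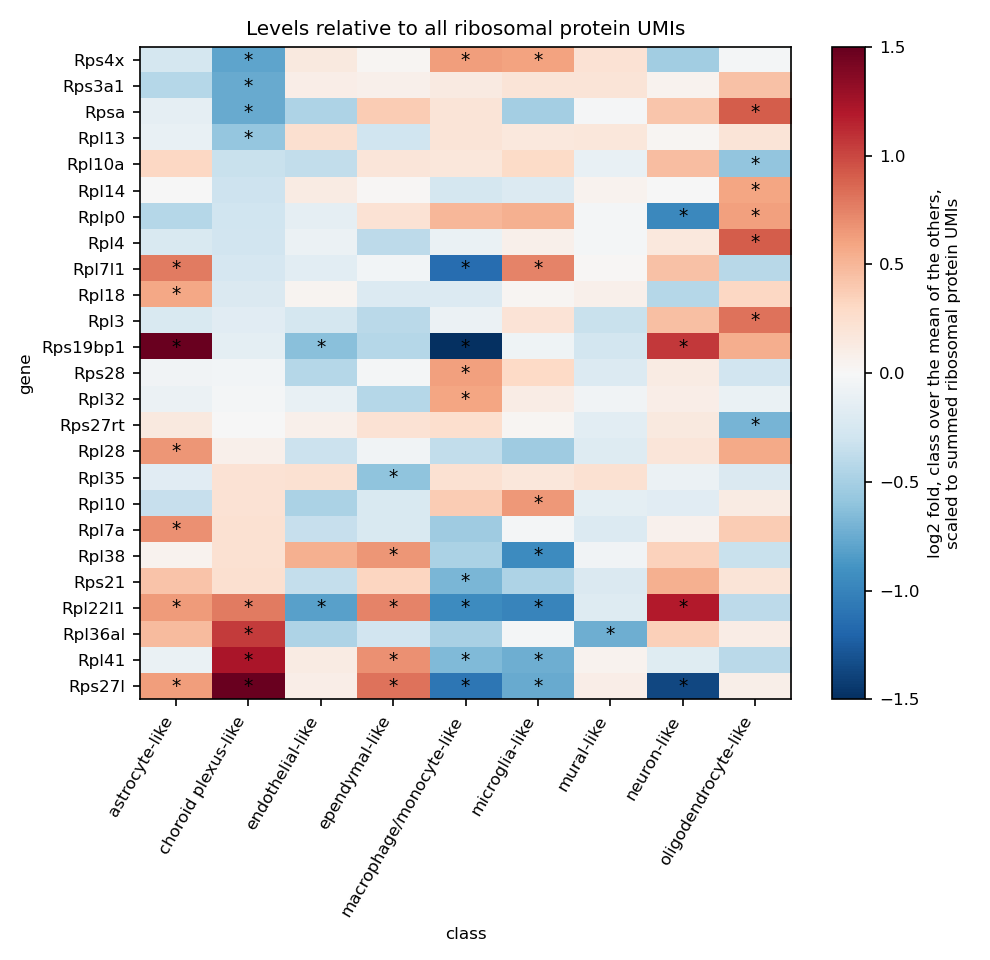
Log2 fold change of a class against the mean of the other tested classes, scaled to the members' summed UMIs, for the members called in at least 1 class, without 2 that are not reported by name; colour runs from -1.5 to 1.5 and asterisks mark calls (adjusted p under 0.05 and absolute value over 0.58). Rps27l, Rpl22l1 and Rpl41 are red in choroid plexus-like and ependymal-like cells (1.48, 0.78 and 1.23 in the former) and blue in microglia-like cells (-0.76, -0.995 and -0.73).

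The same departures appear as the share that the second gene of a pair held of the pair's UMIs, which needs no scaling to other genes. Rpl22l1, the paralog of Rpl22, held 51.6% ± 2.27 of the pair over all cells (SD, n = 4). It held 78.8% ± 2.65 in neuron-like cells, 66.8% ± 1.601 in choroid plexus-like cells, 64.3% ± 2.15 in astrocyte-like cells and 60.7% ± 2.54 in ependymal-like cells. In endothelial-like, microglia-like and macrophage/monocyte-like cells it held 39.96% ± 3.23, 39.9% ± 1.88 and 37.8% ± 5.35, which overlapped each other and lay below each of the former classes in every animal. Oligodendrocyte-like (51.3%) and mural-like cells (50.9%) lay between.

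Rps27l held 9.04% ± 1.35 of its pair over all cells, 21.5% ± 3.58 in choroid plexus-like cells and 5.53% ± 0.44 in microglia-like cells. Its lowest choroid plexus-like animal (18.0%) was above the highest animal of any other tested class (14.8%, ependymal-like). In neuron-like cells it held 4.84% ± 2.48, on 38 UMIs. Rpl36al, an autosomal relative of the X-linked Rpl36a with the same length of 106 residues, held 34.2% ± 0.82 over all cells, 42.8% ± 2.89 in choroid plexus-like and 41.4% ± 3.44 in oligodendrocyte-like cells, and 25.1% ± 1.69 in ependymal-like cells. Its choroid plexus-like and oligodendrocyte-like ranges overlapped. Rpl7l1 held 13.9% ± 0.85 of its UMIs with Rpl7 in microglia-like cells and 9.11% ± 0.46 over all cells.

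**Figure D4:**
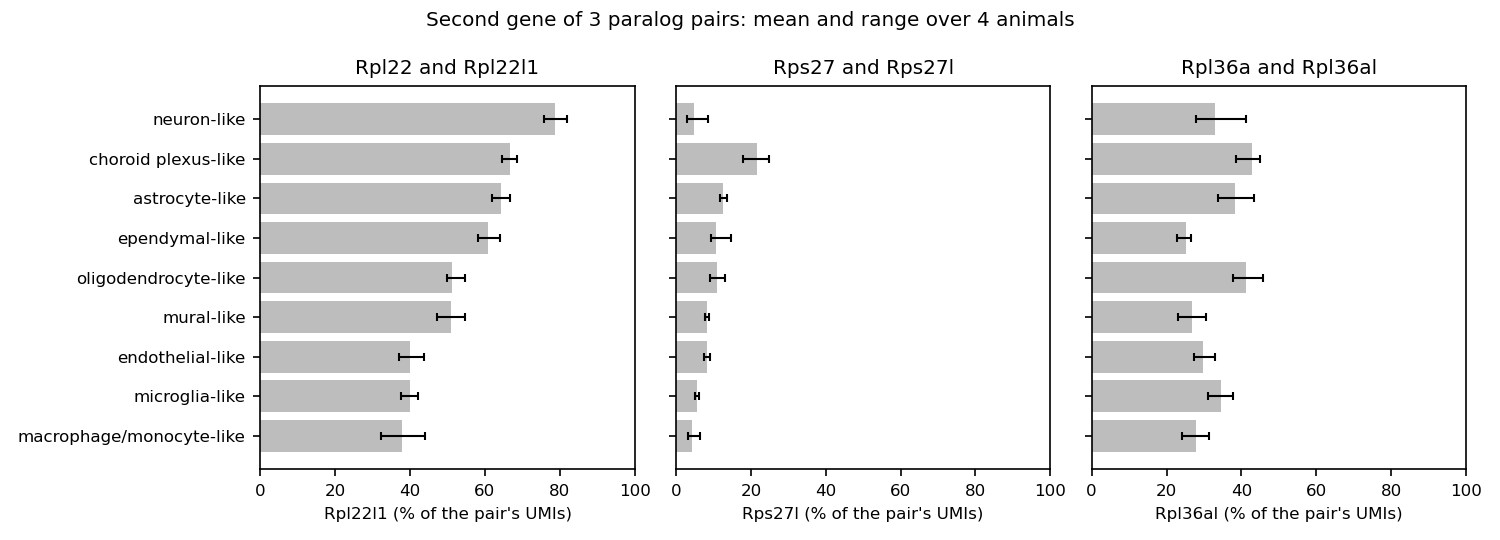
Share of a paralog pair's UMIs held by the second gene in each tested class; bars give the mean and whiskers the range over 4 animals. Rpl22l1 falls from 78.8% in neuron-like to 37.8% in macrophage/monocyte-like cells, whereas Rps27l is highest in choroid plexus-like cells at 21.5%.

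Values of the stalk genes and of Rps27a are given next. Rplp1, with Rplp2 the flexible part of the stalk, had 3122, 3131, 3092 and 3101 CPM in the 4 macrophage/monocyte-like samples, close together although the share of the whole set ran from 17.6% to 22.3%. In neuron-like cells Rplp0 stood at 275 ± 41.7, Rplp1 at 703 ± 98.9 and Rplp2 at 484 ± 135. Within the set only Rplp0 of these 3 was called lower there (-0.97). Rps27a, which is made as a fusion with ubiquitin, had 423 ± 22.6 in astrocyte-like and 2924 ± 508 in macrophage/monocyte-like cells.

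The genes around the ribosome did not all move with it. Among 19 translation genes outside the rule, 17 were higher and 0 lower in macrophage/monocyte-like cells, beside 12.1% and 13.1% of all genes. Most of the 19 have TOP mRNAs, such as those of the elongation factors. Fau, which encodes the S30 protein, was at 2.02 and Rack1, a scaffold on the small subunit, at 1.82. Of the 19, 18 were lower and 0 higher in astrocyte-like cells, beside 15.4% and 28.8% of all genes, led by Tpt1 (-1.92) and Eef1a1 (-1.80). In neuron-like cells 16 were lower and 0 higher, beside 18.6% and 27.8%, led by Eef1d (-2.11). Library totals gave 1 higher and 9 lower there, with a median of -0.56 against 0.68 for all genes. In choroid plexus-like cells 10 were higher and 1 lower (median 0.60), beside 26% and 23.6% of all genes. With library totals 0 were higher and 4 lower, with a median of -0.07 against -0.85 for all genes. Of the 75 tested genes of the mitochondrial ribosome, which translates the few proteins encoded in mitochondria, 65 were higher and 1 lower in choroid plexus-like cells, with a median of 1.05 against -0.20 for all genes. With library totals 31 were higher and 2 lower (median 0.38 against -0.85 for all genes). In macrophage/monocyte-like cells, with the highest cytosolic set, 1 of these 75 was higher and 7 were lower, beside 12.1% and 13.1% of all genes (median -0.39 against -0.51). In astrocyte-like cells 2 were higher and 1 lower, beside 28.8% and 15.4%. In neuron-like cells 0 were higher and 41 lower, beside 27.8% and 18.6%. Library totals gave 8 and 9, with a median of -0.13 against 0.68 for all genes.

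Of 36 ribosome biogenesis genes, 10 were higher and 0 lower in microglia-like cells, beside 28.2% and 15.4% of all genes, so that the 10 were near the share of all genes. In astrocyte-like cells 1 was higher and 12 lower, beside 28.8% and 15.4%. With library totals these were 8 and 0, and 1 and 14. Of 12 regulators, 4 were higher and 2 lower in microglia-like cells. In macrophage/monocyte-like cells 2 were higher and 1 lower, beside 12.1% and 13.1% of all genes, with a list median of -0.44 against -0.51. Oligodendrocyte-like cells had 1 higher and 3 lower, beside 24.7% and 18.7%. Among those called, Myc, which drives ribosome synthesis, was higher in microglia-like (4.94) and macrophage/monocyte-like cells (3.15). Eif4ebp1, an mTOR-controlled brake on translation, was higher in both (2.20 and 2.90) and lower in oligodendrocyte-like cells (-4.31). In choroid plexus-like cells the biogenesis list had 9 higher and 4 lower, beside 26% and 23.6% of all genes. The 9 were thus near the share of all genes. The small subunit assembly factor Bysl was at 2.45, and the list median was 0.22 against -0.20 for all genes. With library totals the list had 5 higher and 18 lower, with a median of -0.45 against -0.85. Shares of all genes under that scaling are given above with the choroid plexus-like members.

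The second comparison asks whether inhibitors during dissociation changed the members, as the levels without over those with inhibitors. With 2 animals an arm, an exact permutation test of a single value cannot go below p = 0.333, so calls come from the edgeR quasi-likelihood fit over all genes. Summed over all cells, the share was 7.99% and 8.22% without and 8.62% and 8.92% with inhibitors. The arms did not overlap, with a difference of -0.664 percentage points. Leaving Ttr out of the denominator made this -0.445 points, and choroid plexus-like cells gave 655242 and 781223 UMIs without but 399143 and 226643 with inhibitors. Gene by gene, 0 of 83 members were called in all cells, beside 0.0507% of all genes, and 2 members had an unadjusted p under 0.05 (DESeq2, 0), beside 6.3% of all genes. Without overlap of the arms, 13 members were lower and 8 higher, beside 17.4% and 19.1% of all genes. The median log2 fold change was -0.02, against -0.01 for all genes. Rps27l had the smallest p of the members (0.30, adjusted p = 0.731, edgeR), followed by Rpl13a (-0.21) and Rpl22l1 (0.20).

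In choroid plexus-like cells the summed share of the members was lower without inhibitors. It was 6.24% and 6.90% without and 9.69% and 9.55% with inhibitors, a difference of -3.05 points. Ttr moved the other way, at 34.6% and 26.3% of UMIs without and 21.5% and 20.4% with inhibitors. Outside Ttr the members' share was still lower, 9.55% and 9.37% against 12.4% and 11.998%. The 2 choroid plexus-like clusters each showed the same order: 8.29% and 9.54% against 11.9% and 11.6% in the larger, with 356 cells, and 5.03% and 5.45% against 6.86% and 7.19% in the smaller, with 263 cells. Cells without inhibitors were deeper, with medians of 2725 and 2378 UMIs against 1923.5 and 1340.5. Among cells with 500 to 1000 UMIs the share outside Ttr was 10.98% and 10.95% without and 11.5% and 12.2% with inhibitors, and among cells with 2000 to 4000 UMIs it was 10.0% and 10.4% against 13.3% and 13.6%. At 1000 to 2000 UMIs it was 10.8% and 9.53% against 12.4% and 12.4%. The arms did not overlap in any of these depth classes, and the gap was smallest at 500 to 1000 UMIs. The part of depth in the difference between arms was not tested.

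By gene, 4 of 83 members were called lower and 0 higher in choroid plexus-like cells, where 4.89% of all genes were called in either direction and 0.841% lower. On the adjusted p alone 48 were lower, beside 2.93% of all genes, 59 had an unadjusted p under 0.05, beside 20%, and the median was -0.33 against -0.02 for all genes. Rpl41 had 6772 and 6259 TMM-scaled CPM without and 10178 and 10449 with inhibitors, at -0.66 (SE 0.08, adjusted p = 3.70e-06, edgeR). Rps19 had 1117 and 1110 against 1621 and 1758, at -0.59, and Rpl4 had 435 and 459 against 666 and 729, at -0.63. Rps27rt had 181 and 181 against 338 and 272, at -0.79, and was not called without the first animal with inhibitors (adjusted p = 0.212, edgeR). In all 4 the arms did not overlap. Over the set, 73 members were lower without overlap and 2 were higher, beside 24.8% and 23.9% of all genes. The 2 higher were Rps27l (640 and 639 against 604 and 598, 0.09) and Rpl10a (439 and 388 against 365 and 356, 0.19), and neither passed the test. With library totals Rps27l was at -0.09.

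How many members were called in choroid plexus-like cells depended on scaling: 28 were with library totals (median -0.50), 3 with totals that left out Ttr (median -0.31), and 0 when scaled to the members themselves. The larger cluster alone gave 1, Rps19 (-0.59), and the smaller 4. These counts stand without the share of all genes called in the same setting, and describe how calls moved. Library totals lowered other lists as well. The median of mitochondrial ribosome genes went from -0.16 to -0.34, and that of biogenesis genes from -0.03 to -0.20. Large and small subunit members had medians of -0.32 and -0.35. The 19 translation genes had 0 called, with a median of 0.03, or -0.15 with library totals, and the 74 tested mitochondrial ribosome genes had 0 higher and 1 lower, Mrpl34 (-0.65), with a median of -0.16. Of 23 tested biogenesis genes, 1 was higher, the large subunit assembly factor Brix1 (2.54), and 1 lower, the RNA polymerase I initiation factor Rrn3 (-1.48).

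**Figure D5:**
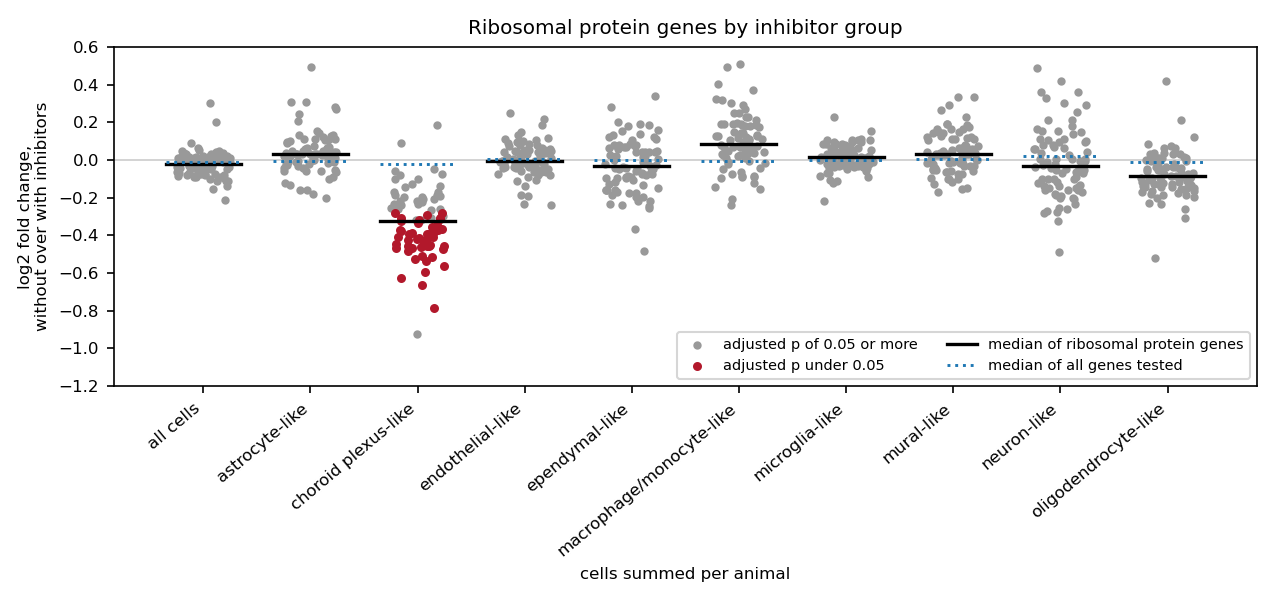
Log2 fold change of each tested ribosomal protein gene, without over with inhibitors, in all cells and in the 9 tested classes; solid lines give the members' median and dotted lines the median of all genes tested. Choroid plexus-like members lie at a median of -0.33, with 48 in red (adjusted p under 0.05), whereas the medians of the other sets lie between -0.09 and 0.08.

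In each of the other 8 tested classes, 0 members were called by edgeR, beside 0.0479% of all genes in astrocyte-like, 0.0363% in endothelial-like, 0% in ependymal-like and neuron-like, 0.492% in macrophage/monocyte-like, 0.471% in microglia-like, 0.132% in mural-like and 0.248% in oligodendrocyte-like cells. An unadjusted p under 0.05 was found for 3 members in astrocyte-like cells (beside 5.26% of all genes), 3 in endothelial-like (5.86%), 0 in ependymal-like (3.96%), 0 in macrophage/monocyte-like (7.71%), 1 in microglia-like (6.15%), 1 in mural-like (6.62%), 0 in neuron-like (2.36%) and 5 in oligodendrocyte-like cells (9.71%), and with DESeq2 for 1 in astrocyte-like cells and 0 in the others. Medians ran from -0.09 in oligodendrocyte-like to 0.08 in macrophage/monocyte-like cells. Oligodendrocyte-like cells had 38 members lower and 2 higher without overlap of the arms, beside 19.5% and 19.1% of all genes. Their share was 5.96% and 5.78% without and 6.06% and 6.16% with inhibitors. Macrophage/monocyte-like cells had 0 lower and 18 higher without overlap, beside 20.2% and 17.3% of all genes. Leaving out the first animal with inhibitors gave 3 called members there, Rps26 (0.83), Rps18 (0.75) and Rplp0 (0.72). In astrocyte-like cells 4 were lower and 10 higher without overlap, beside 17% and 16.8%, and in microglia-like cells 4 and 13, beside 16.6% and 17.7%. Endothelial-like cells had 6 and 15, beside 16.9% and 17.2%, mural-like cells 5 and 15, beside 17.3% and 16.7%, ependymal-like cells 20 and 12, beside 16.1% and 15%, and neuron-like cells 4 and 2, beside 14.1% and 13.3%. None of these members passed the test.

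The 3 members with the smallest p in all cells leaned one way in several classes without being called in any. They were chosen on the sum of the same cells, so their values by class are a description and no independent support. Rps27l was higher without inhibitors, with no overlap of the arms, in each of the 8 classes in which it was tested, by 0.09 (choroid plexus-like and microglia-like) to 0.51 (macrophage/monocyte-like). The direction turned with library totals in choroid plexus-like cells (-0.09) and without the mixed cluster in mural-like cells (-0.47). In oligodendrocyte-like cells Rps27l had 232 and 217 TMM-scaled CPM without and 167 and 170 with inhibitors, at 0.42 (SE 0.15, adjusted p = 0.263, edgeR). Ttr made up 0.188% ± 0.071 of the UMIs of that class without and 0.156% ± 0.062 with inhibitors (SD, n = 2), and the part of free choroid plexus RNA in the Rps27l values was not tested. Rpl13a, which hosts 4 small nucleolar RNAs, was lower without overlap in 6 of 9 classes, of which mural-like cells turned without the mixed cluster (0.06), as in endothelial-like cells with 566 and 587 against 700 and 661 (-0.23, adjusted p = 0.829, edgeR). Rpl22l1 was higher without overlap in 5 of 9 classes, as in astrocyte-like cells with 262 and 281 against 228 and 224 (0.27, adjusted p = 0.940, edgeR), and overlapped in choroid plexus-like cells (-0.19). The median member was higher without overlap in 1 class and lower in 2. The classes share their animals and are not independent of each other.

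The members with the smallest p in single classes were named by rule and did not pass the adjusted test. They include Rpl36al in astrocyte-like cells, with 190 and 206 TMM-scaled CPM without and 134 and 148 with inhibitors (0.49, adjusted p = 0.551, edgeR), and Rpsa in oligodendrocyte-like cells, with 568 and 510 against 614 and 679 (-0.26, adjusted p = 0.377, edgeR). In macrophage/monocyte-like cells the smallest p belonged to Rps26, with 2979 and 2484 against 2294 and 1592 (0.49, adjusted p = 0.654, edgeR), and in neuron-like cells to Rpl29, with 495 and 344 against 522 and 666 (-0.49).

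Whether the effect of inhibitors differed between classes was tested with the class-by-arm interaction. It was called for 0 of 83 members, beside 0.467% of 12412 genes (edgeR), and 0 members had an unadjusted p under 0.05, beside 5.41% of all genes. The smallest p belonged to Rps26 (0.0794), Rps27rt (0.0956), Rps18 (0.107), Rpl41 (0.133) and Rps19 (0.160). With library totals 1 member, Rps27rt, was called (adjusted p = 0.0384, edgeR), beside 0.379% of all genes. Under that scaling 15 members had an unadjusted p under 0.05, beside 5.99% of all genes. The interaction test takes the terms of all tested classes together and does not set choroid plexus-like cells against the others. Whether the members called in choroid plexus-like cells respond differently there than in other classes was not tested.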

How the data were processed

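The authors demultiplexed the reads with bcl2fastq and counted UMIs with Cell Ranger 3.0.0 on mm10 (GRCm38), per the labels, and deposited 1 count matrix per animal. The values are whole UMI counts per gene and cell, not normalized, with raw totals of 5134359 to 7529804 per library, all carrying at least 500 UMIs a barcode. From these, barcodes with at least 400 genes and at most 20% mitochondrial UMIs were kept, and 206 simulated-neighbour doublets (2.05%) were removed. Cells were clustered with scanpy 1.11.5 and leidenalg 0.10.2 without the ribosomal protein genes and the study's activation genes. Clusters were named from fixed marker lists. The 9 pseudogene-type symbols held 3354 UMIs, 0.175% of the members' UMIs, and were left out with 10 S6 kinase symbols. Counts were summed per animal and class and tested with edgeR 4.0.16 (filterByExpr, TMM, robust quasi-likelihood, Benjamini-Hochberg over all genes), with DESeq2 1.42.0 as an alternative. Class levels are CPM from plain UMI totals, whereas levels in the inhibitor comparison are TMM-scaled within a class and are not comparable between classes. The fits were tested on simulated data with known fold changes.

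The members and gene lists were chosen with earlier results of these data known. Genes named in the text were the paralog pairs, Rplp0, Rplp1, Rplp2, Rpsa, Rps27a, Rps6, Rps14 and Rps19bp1, the 3 highest and 3 lowest ubiquitous members, up to 5 called members per inhibitor comparison or else the 3 with the smallest p, up to 3 called members per class and direction, the 5 with the smallest interaction p, and up to 3 called genes per pathway list. Members named relative to the set, and Rps27l and Rpl10a as the 2 rising members of choroid plexus-like cells, were chosen after their values were seen. Values of 2 members are not reported here by name, though they count in every total. Coordinates of genes come from GENCODE annotation and start sites from RefSeq on GRCm38.p6. Alternatives were other scalings, no filter on low counts, a stricter cell filter (600 genes, 10% mitochondrial), doublets kept, clustering with the members, each animal left out and the replicate number as a block.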

Additional observations from a re-analysis of the deposited data

Results flagged for a closer look

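In 6 classes both animals of 1 arm lay above both animals of the other in the summed share of ribosomal protein UMIs, and the direction of the gap was not the same in all of them. Without minus with inhibitors, the gap was -3.05 percentage points in choroid plexus-like, -0.584 in erythrocyte-like, -0.316 in ependymal-like and -0.236 in oligodendrocyte-like cells, but 0.356 in neural progenitor-like and 0.824 in oligodendrocyte precursor-like cells. The difference between these classes was not tested for the share. The progenitor-like, erythrocyte-like and precursor-like classes held 113, 79 and 79 cells over the 4 animals. The first animal with inhibitors gave 5 erythrocyte-like cells. With the stricter cell filter, the arms overlapped in ependymal-like (-0.241), erythrocyte-like (-0.260), neural progenitor-like (0.0951) and precursor-like cells (-0.0875). They stayed apart in choroid plexus-like (-4.09) and oligodendrocyte-like cells (-0.287). With 2 animals an arm, an exact permutation test of such a gap cannot go below p = 0.333.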

How the results depend on the processing

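With 2 animals an arm, no single value can reach significance by permutation, and calls rest on spread shared across genes. In neuron-like and macrophage/monocyte-like cells, with 331 and 178 cells, 80 and 81 members passed the count filter.

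The inhibitor comparison moved with scaling. The median over all cells (-0.02) was -0.098 with library totals, -0.058 with totals without Ttr and 0.016 scaled to the members. In choroid plexus-like cells, 28 members were called with library totals (median -0.502), 0 scaled to the members (median 0.051), 1 in the larger cluster alone (median -0.240) and 48 by adjusted p alone. Scaled to the members, the median was 0.020 in ependymal-like and -0.0027 in oligodendrocyte-like cells, and 1 member was called in the interaction with library totals. With 1 animal left out, the lone animal of an arm being assumed to vary like the others, medians ran from -0.071 to 0.020 over all cells, -0.043 to 0.046 in endothelial-like, -0.037 to 0.299 in macrophage/monocyte-like, -0.371 to 0.387 in neuron-like and -0.101 to -0.040 in oligodendrocyte-like cells. Calls ran from 2 (without the second animal without inhibitors) to 5 in choroid plexus-like and from 0 to 3 (without the first animal with inhibitors) in macrophage/monocyte-like cells.

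Class counts moved too. The counts below stand without the share of all genes called in the same setting, and describe how calls moved. For choroid plexus-like cells, members higher were 4 with library totals, 27 with RLE factors, 22 with totals without Ttr, 4 scaled to the members and 77 by adjusted p alone. For endothelial-like cells they were 2 with RLE factors, 14 with totals without Ttr, 0 scaled to the members, 42 without a count filter, 8 with the stricter cell filter, 69 by adjusted p alone and 12 to 30 with 1 animal left out. For microglia-like cells they were 36, 24, 30 and 3 with library totals, RLE factors, totals without Ttr and member scaling, and 25 to 58 with 1 animal left out. For macrophage/monocyte-like cells 4 remained higher with member scaling. Members lower in ependymal-like cells were 3 with library totals, RLE factors or totals without Ttr, 1 with member scaling and 45 by adjusted p alone. In mural-like cells they were 17 without the mixed cluster (an alternative chosen after seeing the data), 18 by adjusted p alone and 1 to 2 with 1 animal left out, of which 2 came without the second animal without inhibitors. In oligodendrocyte-like cells they were 28, 21, 33 and 2 with library totals, RLE factors, totals without Ttr and member scaling, 4 without a count filter, 11 with the members kept in clustering, 15 with the stricter cell filter, 34 by adjusted p alone and 4 to 13 with 1 animal left out. With member scaling, 0 were lower in astrocyte-like and 2 in neuron-like cells. The cause of these moves was not tested.

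Outside mitochondrially encoded genes, the summed share was 9.04% over all cells, 3.66% in astrocyte-like, 11.2% in endothelial-like, 8.22% in ependymal-like, 11.6% in microglia-like, 9.14% in mural-like and 6.41% in oligodendrocyte-like cells. With the stricter cell filter it was 9.10% over all cells and 5.89% in neuron-like cells. As a mean over cells it was 8.22% in ependymal-like, 10.6% in microglia-like and 7.89% in mural-like cells, and outside Ttr 10.8% in choroid plexus-like cells. The difference between arms was -0.445 points over all cells outside Ttr, and in choroid plexus-like cells -4.09 with the stricter filter, -2.34 as a mean over cells, and -0.896 and -2.20 outside Ttr at 500 to 1000 and 1000 to 2000 UMIs. It was -0.658 in ependymal-like cells as a mean over cells. Of the values of single named genes, 679 were counted as unchanged, 46 fell below the threshold, 1 rose above it and 0 of those called at first reversed. For genes not called at first, a change of direction was counted as unchanged.

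The labels give both arms the numbers 1 and 2. Taken over all genes, deviations of same-numbered animals correlated at 0.08 over all cells and from -0.15 to 0.04 in the classes. Taken over the members, they correlated at 0.07 and from -0.35 to 0.10. Olfactory ensheathing-like cells came only from number 1 of each arm (29 and 32 cells). The labels do not say that the numbers pair the animals, and they are not taken to do so. With the replicate number as a block, 0 members were called over all cells (median -0.023) and 4 in choroid plexus-like cells (median -0.342).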
